A study of Mus musculus with 12 samples.

Results

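GATA1 intervals in or near protein-coding genes are the stretches called in 1 ChIP-seq library of GATA1 from HPC7, a mouse haematopoietic progenitor cell line, that lie in a coding gene or beside one. An interval was included if its midpoint fell inside an annotated protein-coding gene (RefSeq, mm10) or within 1 kb of its start or end. Only chromosomes 1 to 19 and X were used, without the first 4 Mb of chromosome 9. Of 464 GATA1 intervals there, 222 met the rule and 242 did not. A further 13 of the 477 deposited intervals were left out, namely 11 on scaffolds, 1 on chromosome Y and 1 at the start of chromosome 9. The 222 intervals lay in or beside 225 genes, and 12 of them counted for more than 1 gene.

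The cells for GATA1 were HPC7 of wild-type genotype at culture passage 3, grown with 10% serum and 10 ng/mL of stem cell factor. They were set against 4 lists of peaks of MOF, from haematopoietic stem cells (HSC, 15000 cells sorted as LSK without CD34 and Flt3) and megakaryocyte-erythroid progenitors (MEP, 30000 cells sorted as lineage-negative, Sca-1-negative, cKit-positive) of C57BL/6 mice that were Mof -/+ or wild type. Marrow came from several pooled bones, and the labels do not say how many animals a library holds. Each list came from 1 library, so no value below has a replicate check, every p-value compares lists rather than conditions, and sequencing depth is unknown. A peak list measures no expression, so the identity of the HPC7 cells could not be checked against marker genes.

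GATA1 is a zinc finger transcription factor that recognises short DNA words with the letters GATA and is needed for erythroid and megakaryocytic maturation. In erythroid cells it is known from enhancers within and between genes of globins, haem synthesis and red cell membrane proteins. MOF, the product of Kat8, acetylates histone H4 at lysine 16, a mark of active chromatin.

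Few of the intervals reached a promoter for which an annotated start was available, and the sequences of those that did are shown first. RefSeq's promoter table for GRCm38.p6, the same build as mm10, gives 300 bases for each annotated start, from 250 before it to 50 after. It held starts for 172 of the 225 genes, so the promoters of the others could not be read. Of the 222 intervals, 8 overlapped 10 such windows of 8 genes. These were Dctn3, a subunit of the dynactin complex that works with the dynein motor, Sec1, a fucosyltransferase gene, Odaph, a gene of enamel formation, Pgap2, which remodels the lipid of GPI anchors, the predicted gene 4930467E23Rik, Pdlim3, a muscle protein of the actin network, Kat8, and Kdm7a, a histone demethylase gene. The windows below are written in the direction of transcription, and capitals mark the bases that lie inside the GATA1 interval. They show how much of each promoter was covered, with the window of the most covered start for Pgap2 and Kat8, and without Kdm7a, whose window shared only 13 bases.
Dctn3 (chr4:41723114-41723413, minus strand): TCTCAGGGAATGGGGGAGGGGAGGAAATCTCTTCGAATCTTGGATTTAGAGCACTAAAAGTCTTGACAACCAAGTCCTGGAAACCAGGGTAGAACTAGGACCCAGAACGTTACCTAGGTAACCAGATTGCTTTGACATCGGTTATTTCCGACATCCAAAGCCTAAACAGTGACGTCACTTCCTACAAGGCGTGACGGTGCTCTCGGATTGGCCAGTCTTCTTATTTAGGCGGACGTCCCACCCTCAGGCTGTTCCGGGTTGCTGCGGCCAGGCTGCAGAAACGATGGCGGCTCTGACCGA
Sec1 (chr7:45694353-45694652, minus strand): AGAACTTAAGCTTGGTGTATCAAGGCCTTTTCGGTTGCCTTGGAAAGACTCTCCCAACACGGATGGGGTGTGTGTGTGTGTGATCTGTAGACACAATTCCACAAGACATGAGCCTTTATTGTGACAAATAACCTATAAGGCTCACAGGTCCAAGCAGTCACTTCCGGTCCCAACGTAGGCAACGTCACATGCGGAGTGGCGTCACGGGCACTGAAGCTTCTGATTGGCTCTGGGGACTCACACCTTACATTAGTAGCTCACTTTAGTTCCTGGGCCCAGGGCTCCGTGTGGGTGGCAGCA
Odaph (chr5:91987223-91987522, plus strand): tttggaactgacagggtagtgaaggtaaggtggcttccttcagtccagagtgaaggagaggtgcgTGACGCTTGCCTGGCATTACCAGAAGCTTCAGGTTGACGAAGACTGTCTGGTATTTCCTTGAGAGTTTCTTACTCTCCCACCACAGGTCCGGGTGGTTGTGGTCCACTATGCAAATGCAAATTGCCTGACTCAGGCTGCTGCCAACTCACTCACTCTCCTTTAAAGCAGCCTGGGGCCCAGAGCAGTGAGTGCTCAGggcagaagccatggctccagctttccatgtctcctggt
Pgap2 (chr7:102222821-102223120, plus strand): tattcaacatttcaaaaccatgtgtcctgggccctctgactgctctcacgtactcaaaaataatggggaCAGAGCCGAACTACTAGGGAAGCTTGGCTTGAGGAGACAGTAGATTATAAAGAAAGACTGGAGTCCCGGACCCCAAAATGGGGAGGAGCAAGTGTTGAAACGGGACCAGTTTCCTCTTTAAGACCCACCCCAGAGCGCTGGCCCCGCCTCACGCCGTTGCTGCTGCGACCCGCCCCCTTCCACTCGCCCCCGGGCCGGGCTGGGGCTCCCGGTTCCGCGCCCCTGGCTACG
4930467E23Rik (chr8:19729326-19729625, plus strand): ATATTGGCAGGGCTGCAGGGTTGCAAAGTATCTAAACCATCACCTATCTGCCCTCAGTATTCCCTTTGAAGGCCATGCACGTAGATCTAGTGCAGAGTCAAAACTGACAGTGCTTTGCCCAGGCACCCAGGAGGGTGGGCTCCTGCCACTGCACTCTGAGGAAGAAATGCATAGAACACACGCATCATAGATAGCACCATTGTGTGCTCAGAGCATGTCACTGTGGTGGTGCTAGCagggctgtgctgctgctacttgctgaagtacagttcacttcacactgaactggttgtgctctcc
Pdlim3 (chr8:45885237-45885536, plus strand): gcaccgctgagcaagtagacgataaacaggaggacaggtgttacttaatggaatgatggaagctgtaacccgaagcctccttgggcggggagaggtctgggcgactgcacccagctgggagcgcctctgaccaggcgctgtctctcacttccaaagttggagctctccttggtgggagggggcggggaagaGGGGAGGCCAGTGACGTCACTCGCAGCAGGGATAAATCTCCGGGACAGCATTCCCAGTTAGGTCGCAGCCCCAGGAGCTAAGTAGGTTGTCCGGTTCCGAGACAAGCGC
Kat8 (chr7:127912267-127912566, plus strand): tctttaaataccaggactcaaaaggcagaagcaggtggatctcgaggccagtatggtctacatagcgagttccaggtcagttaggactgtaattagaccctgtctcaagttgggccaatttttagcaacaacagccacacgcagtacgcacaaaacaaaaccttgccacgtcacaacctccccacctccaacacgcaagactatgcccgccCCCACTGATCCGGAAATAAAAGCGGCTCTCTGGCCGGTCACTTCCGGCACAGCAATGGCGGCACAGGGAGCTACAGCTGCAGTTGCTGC

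Dctn3 and Sec1 were covered over the whole window of 300 bases by intervals of 395 and 668 bp. The covered part was 236 bases in 4930467E23Rik, 231 in Pgap2, 197 in Odaph, 109 in Pdlim3 and 89 in Kat8. GATA words, which were AGATAA or AGATAG and the same beginning with T, namely TGATAA or TGATAG, were searched on both strands. They occurred in 1 of the 10 windows, that of 4930467E23Rik, which held 2 matches, both inside the interval. Of all 21045 promoter windows of coding genes in the table, 25.8% held at least 1 match. No match says only that these letters are not in the window. A word noticed in the printed sequences, TGACGTCA, the cyclic AMP response element, was present in 2 of the 10 windows, those of Dctn3 and Pdlim3, and in 2.26% of all windows. It was picked because it was seen in these windows, so the contrast with all windows tests nothing.

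A microRNA gene was covered in 1 case. An interval of 335 bp in Rabac1 (chr7:24969813-24970147), a gene for a Rab-binding protein of vesicle transport, held the hairpin of Mir7046. Its mature products are given with bases 2 to 8, the seed, in capitals. The pair have different seeds.
mmu-miR-7046-3p: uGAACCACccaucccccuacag
mmu-miR-7046-5p: uGUAGGGUgaggcugggagccagg

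Where the intervals lay was compared with evenly spread positions. For these, the share of all positions on the same chromosomes that meet the rule was computed exactly from lengths. The intervals in or near coding genes made up 47.8% of GATA1 intervals (222 of 464, 95% Wilson interval 43.3 to 52.4), against 42.4% of positions. The Wilson intervals here cover counting error only. Most were deep in genes. A gene end here means either boundary of a gene, its start or its far end. Over 1 kb from any gene end, inside a body, lay 193 intervals (41.6%, 37.2 to 46.1), against 39.3% of positions, so this share was near that of evenly spread positions. Within 1 kb of a gene end lay 29 intervals (6.25%, 4.39 to 8.83), against 3.17% of positions, a ratio of 1.97. Within 1 kb of an annotated start, on the 19 chromosomes with starts in the promoter table, lay 16 of 446 intervals (3.59%, 2.22 to 5.75), against 1.55% of positions. The table lacks starts for some genes on these chromosomes, for intervals and positions alike.

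Nearest to a gene end of either kind was the interval of Pdlim3, with a midpoint 15 bp from its start. Next were those of Sec1 and the netrin gene Ntn5 (30 bp from the far end of Ntn5). Then came Dctn3 and Arid3c (80 bp from the start of Dctn3), Odaph (87 bp from its start) and Kat8 (120 bp from its start). They were followed by the pair of the arginine methyltransferase gene Carm1 and Yipf2 (198 bp) and by Rabac1 (230 bp from its far end). Last were the pair of Bcl9l and the chemokine receptor gene Cxcr5 (238 bp), Slc35g2 (243 bp from its start), and the pair of Poglut3 and 4930550C14Rik (246 bp). For Carm1, Cxcr5 and Poglut3, the nearest genes of their pairs, no strand was known. For 10 intervals the midpoint was outside every gene. They reached from 80 bp beyond Dctn3 to 895 bp beyond Wls, a carrier of secreted Wnt proteins. The nearest intervals that missed the rule were 1491 bp from Gas8 and 1528 bp from AU021092, so no midpoint lay between 895 and 1491 bp from a gene. The other 242 intervals had a median distance of 35.1 kb to the nearest coding gene.

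The position along the gene could be read for 168 pairs of an interval and a gene with known strand. From the start to the end of transcription, 34 fell in the first 25% of the gene, 37 in the next 25%, 41 in the next and 56 in the last. The last 25% held 33.3% (26.6 to 40.8), against 25% for even spread. The median position was 59.3% of the way along. Of the 213 intervals on chromosomes with annotated starts, 152 were 10 kb or more from any coding start in the promoter table. The median distance to the nearest such start was 24891 bp. Genes without a start in that table were not counted, so true distances can be shorter.

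The genes were longer than coding genes in general, as the rule favours long genes, but shorter than the genes that evenly spread positions would hit. Their median length was 71.5 kb (quartiles 29.6 and 163), against 123 kb (44.9 and 343.3) for evenly spread positions and 17.4 kb for all 21523 coding genes. Genes of 300 kb or longer numbered 31 of 225 (13.8%, 9.88 to 18.9), against 55.1 (28.1%) from evenly spread positions. Genes under 10 kb numbered 20 (8.89%, 5.83 to 13.3), against 9.1 (4.64%). Between these, there were 77 genes of 30 to 100 kb (34.2%), against 52.6 (26.9%), and 60 of 100 to 300 kb (26.7%), against 54.5 (27.8%). Evenly spread positions would hit 196 genes in all, fewer than the 225 seen, so counts and shares can differ in direction. For 100 to 300 kb the count was above that of evenly spread positions and the share slightly below. Gene length enters the rule, so these are descriptions without a test.

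**Figure D1:**
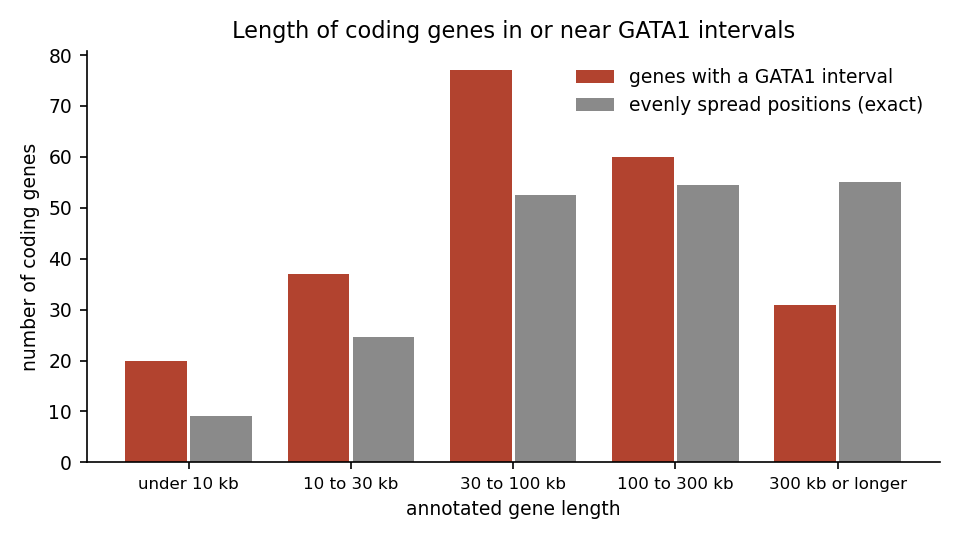
Number of coding genes with a GATA1 interval inside or within 1 kb (red) in 5 classes of annotated gene length, beside the number that evenly spread positions would hit, computed from lengths (grey). The red bar is higher up to 300 kb and lower at 300 kb or longer, where 31 genes stand against 55.1. In total, the red bars hold 225 genes and the grey bars 196.

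The longest of these genes were Gpc5, a cell surface proteoglycan gene, at 1433 kb, Cdh13, which encodes the GPI-anchored T-cadherin, at 1185 kb, Auts2 at 1106 kb, the RNA-binding protein gene Rbms3 at 1057 kb and the transcription factor gene Sox5 at 953.9 kb. The shortest were the interferon lambda gene Ifnl3 at 1.57 kb, Gm52437 at 1.73 kb, the deubiquitinase gene Usp17ld at 2.42 kb, Gm8764 at 2.44 kb and Rabac1 at 2.98 kb.

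Intervals in or near coding genes were as wide as the other GATA1 intervals over most of the range. Their median width was 273 bp (quartiles 180 and 477.5, range 149 to 1480), against 259.5 bp (169 and 479.2, range 149 to 5784) for intervals outside coding genes. The smallest width of the list, 149 bp, was shared by 41 of the 222 (18.5%, 13.9 to 24.1), against 41 of 242 (16.9%, 12.7 to 22.2). Among these narrowest were intervals in Ust, a sulfotransferase gene, Hkdc1, a hexokinase-domain gene, Fam13c, the metalloproteinase gene Mmp11 and the collagen gene Col18a1, which come first among the tied intervals when sorted by position. At 1 kb or wider there were 2, against 7 outside coding genes. At gene ends the median was 319 bp (n = 29), and inside gene bodies it was 263 bp (n = 193). Widths were not tested.

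**Figure D2:**
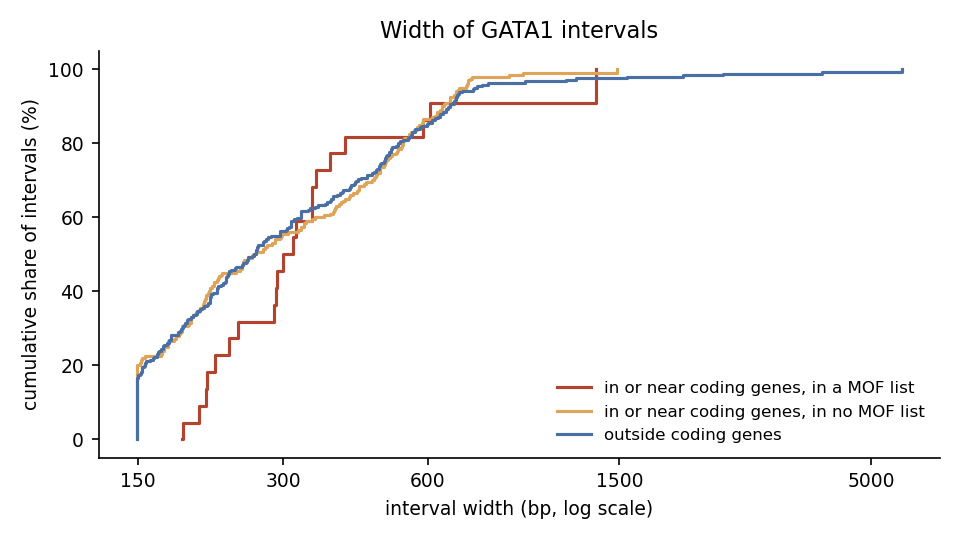
Cumulative share of GATA1 intervals (vertical, %) by width (horizontal, bp, log scale) for the 22 intervals in or near coding genes that overlap a MOF peak (red), the 200 that overlap none (yellow) and the 242 outside coding genes (blue). The red line starts at 185 bp, while the others start at 149 bp.

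The widest were the interval of 1480 bp in LOC100504180 and the one of 1338 bp at the far end of Kat8, next to the protease gene Prss8. Then came Stam2, of endosomal sorting, with 946 bp, Usp49 and Gm20517 with 882 bp, Gm21119 with 739 bp, the lipid flippase gene Atp8b3 with 733 bp, Gm36327 with 728 bp, the sorting nexin gene Snx10 with 726 bp, the sulfotransferase gene Gal3st4 with 723 bp and Bcas1 with 721 bp.

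Genes of blood lineages were counted by list, each beside the number that evenly spread positions would hit. All coding genes had an interval in 1.05% of cases (225 of 21523), the background for the counts that follow. Of 45 erythroid genes, among them the globin genes, Klf1, Epor, Alas2 and Gata1 itself, 0 had an interval, where evenly spread positions would hit 0.311 genes. The same was true of the 7 heptad transcription factor genes, which act together in blood progenitors (0.12 by length), 20 myeloid genes (0.0824), 20 lymphoid genes (0.186) and 9 mast cell genes (0.0151), with 0 each. At these lengths less than 1 gene of each list would be hit by evenly spread positions, so a count of 0 is not below that background. Of 22 megakaryocyte genes 1 had an interval (4.55%), against 0.183 by length. It was the transcription factor gene Mef2c (193 bp, 35475 bp from its nearest annotated start). Of 30 stem cell genes 1 had one (3.33%), against 0.532 by length. It was Mecom, a zinc finger regulator of stem cells (149 bp, the narrowest width). Of the 13 genes of MOF-containing complexes 1 had any, Kat8 itself, against 0.0866 by length.

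Chromatin modifier genes had 7 of 125 with an interval (5.6%), against 1.81 from length. They were the histone acetyltransferase gene Kat8, the AT-rich DNA-binding protein genes Arid3b and Arid3c, the remodelling helicase gene Chd5, the methyltransferase gene Ehmt1, Jarid2, a partner of the Polycomb complex PRC2, and Kdm7a. Their intervals numbered 11, and 5 of these were in Kat8. Arid3c and Kdm7a count only through the window of 1 kb. The interval counted for Arid3c lay nearer to Dctn3, and that of Kdm7a had its midpoint 327 bp outside the gene.

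Genes of the extracellular matrix had 7 of 115 (6.09%), against 2.37 from length. They were the collagen genes Col4a1 (491 bp), Col5a3 and Col18a1 (149 bp each), the laminin gene Lamc3 (322 bp), the perlecan gene Hspg2 (299 bp), the thrombospondin gene Thbs2 (210 bp) and Mmp11. None of the 7 intervals overlapped a MOF peak. No other list of 100 or more genes reached that share.

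Ion channel genes had 6 of 207 (2.9%), against 4.62 from length, among them the calcium-activated potassium channel genes Kcnn2 (2 intervals) and Kcnn3, the potassium channel gene Kcnh1 and the sodium channel gene Scn4a. Regulators of small GTPases had 5 of 168, against 3.84, with Dock9, Arhgap22, Arhgap21 and Arhgap18 the widest. Kinase genes had 5 of 204, against 3.95, with Stk33, Cdk8, Stk24 and Prkar1b. Both counts were near the length background. Motor protein genes had 3 of 85, against 1.97, namely Dnah11, whose interval lay 820 bp outside it, Myo6 and Myo16. ATP-driven transporter genes had 3 of 135, against 1.65, namely Atp8b3, Atp10a and Atp9b.

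Adhesion and synapse organiser genes, which are long, had 6 of 182, against 11.9 from length. They included Cdh13 with 2 intervals, Cadm4, the endothelial cadherin gene Cdh5 and Tenm4. Neurotransmitter receptor genes had 1 of 111, Gabrg1, against 3.03. Axon guidance genes had 2 of 73, Ntn5 and Sema6d, against 2.5. Solute carrier genes had 3 of 389 (Slc6a11, Slc25a21 and Slc35g2), against 3.92, and ubiquitin pathway genes 3 of 371 (Usp49, Usp5 and Usp17ld), against 3.55. Zinc finger genes of the Zfp series had 3 of 397, against 2.98, of which Zfp978 and Zfp991 shared 1 interval.

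Receptor phosphatase genes had 1 of 20, Ptprj, against 1.4, phosphodiesterase genes 1 of 26, Pde1c, against 1.05, and homeobox genes 1 of 117, Hoxb8, against 1.1. Translation genes had 2 of 113, Eef2kmt and the mitochondrial leucyl-tRNA synthetase gene Lars2, against 0.694. Lists with 0 were histone genes (99 genes, 0.0563 from length), ribosomal protein genes (82, 0.0871), genes of mitochondrial respiration and translation (183, 0.519), DNA repair and replication genes (111, 1.03), splicing genes (120, 1.29), other G protein-coupled receptor genes (103, 0.82) and olfactory and vomeronasal receptor genes (1461, 1.79). Across all 32 lists, 61 genes had an interval, against 59.1 from length.

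Overlap with MOF peaks concerned few of the intervals but usually several lists at once. Of the 222 intervals in or near coding genes, 22 overlapped a peak of at least 1 MOF list (9.91%, 6.64 to 14.5), against 47 of 242 outside coding genes (19.4%, 14.9 to 24.9). Of the 22, 20 were in 2 or more lists, and 7 were in all 4. Outside coding genes, 31 of 47 were in 2 or more lists and 4 in all 4. The other 200 intervals were in no MOF list. Of all GATA1 intervals on these chromosomes, 12.1% overlapped the heterozygous HSC list, 4.96% the wild-type HSC list, 5.39% the heterozygous MEP list and 11.4% the wild-type MEP list.

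By list, the share in or near coding genes fell below that outside them for heterozygous HSC, where 15 of 222 overlapped (6.76%, 4.14 to 10.8), against 41 of 242 (16.9%, 12.7 to 22.2). The odds ratio was 0.356 (0.177 to 0.682, adjusted p = 0.00365, two-sided Fisher's exact test, Benjamini-Hochberg over the 4 lists). The other lists did not pass the test. For wild-type HSC 11 of 222 (4.95%) stood against 12 of 242 (4.96%), an odds ratio of 0.999 (0.39 to 2.53, exact test, adjusted p = 1). For heterozygous MEP it was 16 of 222 (7.21%), against 9 of 242 (3.72%), an odds ratio of 2.01 (0.815 to 5.27, exact test, adjusted p = 0.139). For wild-type MEP it was 18 of 222 (8.11%), against 35 of 242 (14.5%), an odds ratio of 0.523 (0.269 to 0.984, exact test, adjusted p = 0.0804). The call for both MEP lists depended on the setting. Without the 5 Kat8 intervals, which all overlapped the heterozygous MEP list, heterozygous MEP had 11 of 217 (5.07%), against 9 of 242 (3.72%, exact test, adjusted p = 0.648), and wild-type MEP had 14 of 217 (6.45%), against 35 of 242 (14.5%, exact test, adjusted p = 0.0124). With an overlap of at least 50% of the interval, heterozygous MEP had 14 of 222 (6.31%), against 4 of 242 (1.65%, exact test, adjusted p = 0.0281), and wild-type MEP had 16 of 222 (7.21%), against 22 of 242 (9.09%, exact test, adjusted p = 0.668).

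All 4 shares were far above that of evenly spread positions of equal width inside the same gene regions, which would overlap the heterozygous HSC list in 0.00857% of cases, the wild-type HSC list in 0.0968%, the heterozygous MEP list in 0.00196% and the wild-type MEP list in 0.0376%. The intervals outside coding genes were also far above positions there, at 0.00679%, 0.0166%, 0.00204% and 0.00997% in the same order. This background was higher in gene regions for both wild-type lists and slightly higher for heterozygous HSC. The odds ratios do not take it into account. Seen from the MOF side, peaks that overlapped intervals in or near coding genes were 15 of 248 in heterozygous HSC (6.05%) and 11 of 1839 in wild-type HSC (0.598%). In MEP such peaks were 16 of 59 in the heterozygous list (27.1%) and 18 of 829 in the wild-type list (2.17%). These totals are the peaks on the chromosomes used. They were 248 of 338 in heterozygous HSC, 1839 of 1876 in wild-type HSC, 59 of 64 in heterozygous MEP and 829 of 898 in wild-type MEP.

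**Figure D3:**
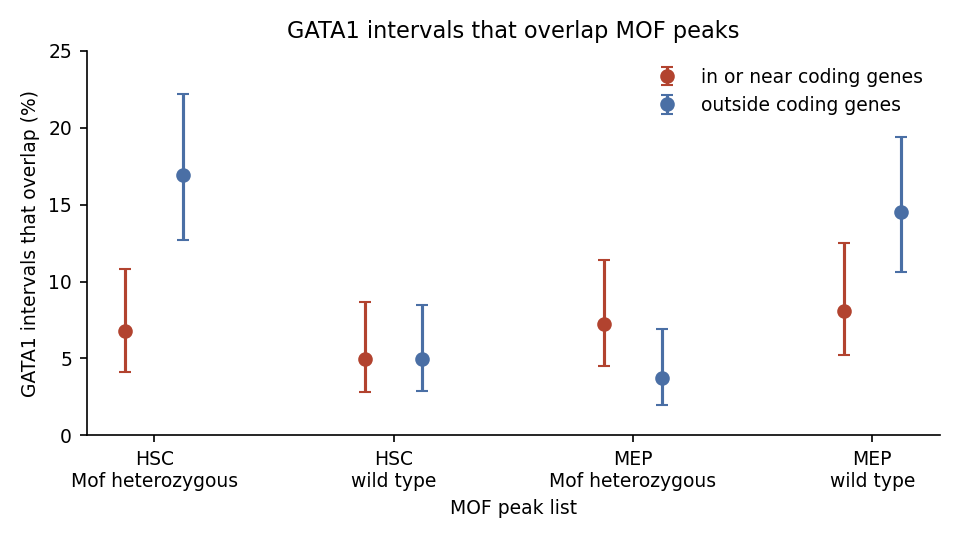
Share of GATA1 intervals that overlap a MOF peak (vertical, %), by MOF list, for the 222 intervals in or near coding genes (red points) and the 242 outside them (blue points), with 95% Wilson intervals as error bars. The error bars stand apart in heterozygous HSC, at 6.76% and 16.9%, and overlap in the other 3 lists.

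The 7 intervals found in all 4 MOF lists lay in Cdk8, the kinase of the Mediator complex, Jarid2, the CCCH zinc finger gene Zc3h7a, Kat8, the shared stretch of Cmss1 and Filip1l, the kinase-like gene Peak1, and Lars2. The authors' −log10 value per peak was used only to rank peaks within a list. It is a q in the heterozygous lists and of unstated kind in the wild-type lists, so values are not compared between them. For Zc3h7a it was 69.1 in heterozygous HSC (rank 7 of 338) and 57.1 in wild-type HSC (rank 1 of 1876). For the same interval it was 13.9 in heterozygous MEP (rank 21 of 64) and 16.9 in wild-type MEP (rank 109 of 898). The lists differ in length, so ranks are read within a list and not between lists.

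The Lars2 interval (242 bp, 99.3% along the gene) ranked 41 in heterozygous HSC, 2 in wild-type HSC, 35 in heterozygous MEP and 53 in wild-type MEP. The Cdk8 interval (351 bp) ranked 16 in heterozygous HSC, 4 in wild-type HSC, 11 in heterozygous MEP and 62 in wild-type MEP. The interval of Cmss1 and Filip1l (300 bp) ranked 4, 6, 9 and 43 in the same order of lists. All of these were in the upper part of the wild-type HSC list. For Jarid2 (344 bp) the ranks were 105 in heterozygous HSC, 10 in wild-type HSC, 16 in heterozygous MEP and 116 in wild-type MEP, and for Peak1 (292 bp) they were 88, 7, 32 and 161.

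In 3 MOF lists were Numa1, a gene for a mitotic spindle protein, Gphn, the gene of the receptor scaffold gephyrin, and 2 further intervals of Kat8. The Numa1 interval (606 bp) was absent from heterozygous HSC and ranked 102 in wild-type HSC, 4 in heterozygous MEP and 8 in wild-type MEP. The Gphn interval (185 bp) ranked 106 in heterozygous HSC and 51 in wild-type HSC. It was absent from heterozygous MEP and had rank 100 in the list of wild-type MEP.

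The intervals in 1 or 2 MOF lists were those of E030030I06Rik (585 bp), Aida (404 bp), Wls (314 bp), the adhesion gene Chl1 (290 bp), the peptidase gene Dpp9 (217 bp), Tmem267 (208 bp), 2210408I21Rik (207 bp), Arhgap21 (186 bp), Kctd16, which encodes a subunit associated with GABA-B receptors (287 bp), and the remaining 2 of Kat8. None of these was in the wild-type HSC list. Wls, Chl1, Dpp9, Tmem267 and 2210408I21Rik were in heterozygous HSC and wild-type MEP, Aida and Arhgap21 in heterozygous HSC and heterozygous MEP, and E030030I06Rik in both MEP lists. Kctd16 was in heterozygous MEP alone, with a −log10 q of 25.4 and 4.91-fold enrichment (rank 8).

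Where lists overlapped, most positions matched closely. Only overlapping pairs were measured, so the overlap rule itself partly sets this closeness. The inputs were not analysed here, so whether the same places also stand high in input was not tested. In heterozygous HSC the MOF interval covered a median of 98% of the GATA1 interval (66.3 to 100, n = 15), and in heterozygous MEP a median of 76.5% (26.8 to 100, n = 16). The wild-type summits lay a median of 18 bp from the midpoint of the GATA1 interval in HSC (3 to 143, n = 11) and 13 bp in MEP (1 to 334, n = 18). None of the 22 overlapping intervals had the smallest width of 149 bp (0%, up to 14.9), against 41 of the 200 that were in no MOF list (20.5%, 15.5 to 26.6), and their median width was 296 bp, against 259.5 bp. Outside coding genes the direction was the same. There 2 of 47 in a MOF list had the smallest width (4.26%), against 39 of 195 in none (20%), with medians of 312 and 239 bp.

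Kat8 held more intervals than any other coding gene. Genes with 2 or more numbered 6 (0.0279% of coding genes), where evenly spread positions would give 5.51. Apart from Kat8 they had 2 each. The 2 midpoints were 1.98 kb apart in Pitpnm2, a phosphatidylinositol transfer gene, 4.82 kb in Ust, 32.8 kb in the gelsolin gene Gsn, 268.4 kb in Kcnn2 and 289.4 kb in Cdh13. Kat8 had 5 over 13.3 kb (chr7:127912517-127925838), where its length would give 0.00388.

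The 5 Kat8 intervals were 319, 376, 231, 201 and 1338 bp wide in order from the start of the gene. Each overlapped an interval of the heterozygous MEP list, with starts that differed by 2 to 23 bp. The −log10 q values there were 88.7, 98.4, 88.3, 17.5 and 58.5 in that order, with ranks 2, 1, 3, 15 and 6 of 64. All but the interval of 201 bp held a wild-type MEP summit, with −log10 values of 78.1, 58.2, 24.2 and 135. Heterozygous HSC had only the first, with −log10 q 29.3 and 13.9-fold enrichment. In wild-type HSC the first, the second and the last held a summit, with −log10 values of 34.4, 24.5 and 22.6. The first interval is the one whose promoter bases are printed in capitals above.

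**Figure D4:**
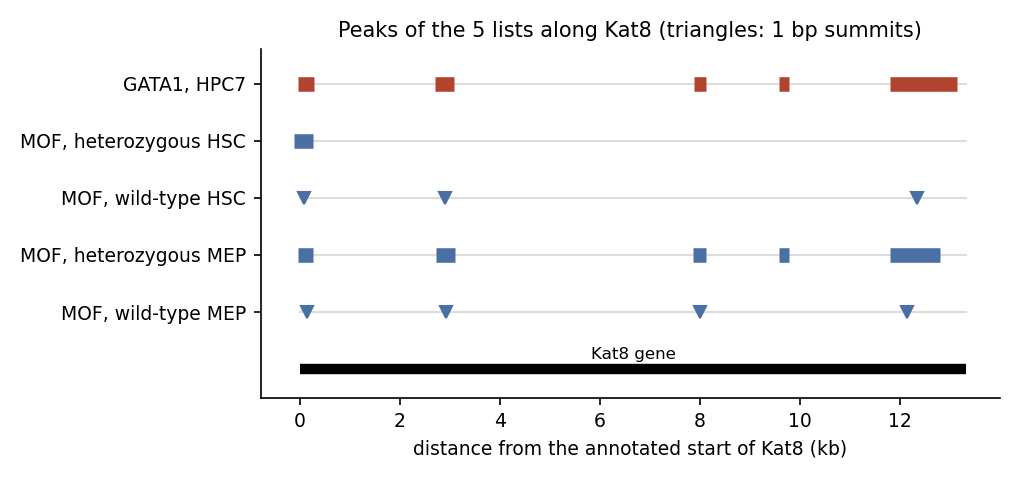
Intervals of GATA1 in HPC7 (red) and MOF peaks of the 4 other lists (blue; bars are deposited intervals, triangles are summits of 1 bp) along Kat8, by distance from its annotated start (kb). The 5 GATA1 intervals and the 5 heterozygous MEP intervals stand at the same places, and heterozygous HSC has 1.

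MOF peaks were also counted over whole genes, overlapping the GATA1 interval or not. Of the 225 genes, 20 had a heterozygous HSC peak inside or within 1 kb (8.89%), against 0.678% of all coding genes and 0.983% at the rate of coding genes in the same length classes. For wild-type HSC it was 31 genes (13.8%), against 7.89% of all and 8.58% at like length. For heterozygous MEP it was 16 genes (7.11%), against 0.116% and 0.295%, and for wild-type MEP 26 genes (11.6%), against 3.27% and 3.67%. In 20 of the 31 genes with a wild-type HSC peak no GATA1 interval overlapped that list. In the same sense it was 4 of 20 genes in heterozygous HSC, 2 of 16 in heterozygous MEP and 10 of 26 in wild-type MEP. The wild-type HSC list is also the longest, and the difference between lists was not tested. In Mecom the wild-type HSC peak was 352.9 kb from the GATA1 interval (−log10 value 5.94), and in Mef2c it was 46.1 kb away (4.39).

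In 2 pairs of genes of like length on the same chromosome the intervals lay at like places. Gm40367 and Gm36327, predicted genes of 3.22 kb each on chromosome 6, had intervals of 466 and 728 bp at 62.7% and 60.2% along the gene. In both, a wild-type MEP summit lay close by, at 717 and 619 bp from the midpoint, without overlap. A heterozygous HSC peak lay 594 bp from the midpoint in Gm36327, also without overlap. On chromosome 8, 9530057J20Rik and Gm21119 (32 and 32.3 kb) had an interval at the far end, 98.3% along the first and 760 bp beyond the second. Heterozygous HSC peaks lay 6.97 kb from the midpoint in 9530057J20Rik and 10.7 kb in Gm21119, and a heterozygous MEP peak lay 9.69 kb away in Gm21119. The sequences of these genes were not compared, and no source used here says how reads that match several places were treated.

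Chromosome 7 held the most intervals in or near coding genes, 23, where sharing all 222 out by the length of coding genes gives 12.9. The 5 in Kat8 are among them. Chromosome 1 held 6, against 16.6, chromosome 3 held 5, against 11.1, and chromosome X held 3, against 9.85. In all, these chromosomes had 16, 11 and 8 GATA1 intervals in that order. The shares in or near coding genes were 37.5%, 45.5% and 37.5%, against 41.4%, 33.9% and 28.1% of positions. On chromosomes 3 and X the share was thus above that of positions. Chromosome 8 had the most GATA1 intervals of all, 49, but only 17 of them (34.7%) were in or near coding genes, where coding genes and their flanks cover 42% of positions. The share was highest on chromosome 10 (16 of 25, 64%, against 43% of positions) and chromosome 7 (23 of 36, 63.9%, against 43.3%).

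**Figure D5:**
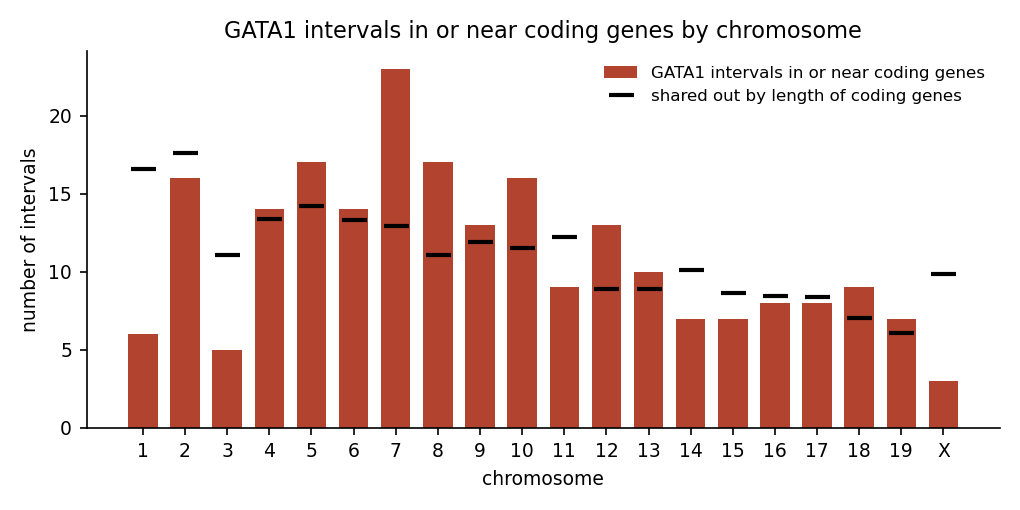
Number of GATA1 intervals in or near coding genes on each chromosome (red bars), beside the number obtained by sharing all 222 out by the length of coding genes (black marks). The bar of chromosome 7 stands highest above its mark, at 23 against 12.9.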

How the data were processed

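ChIP-seq peak lists of 5 of the series' 12 samples were used. The other 7, which were 6 inputs and 1 H4K16ac library, were not analysed here. Per the submitters' processing notes, the build was mm10 and the tools included MACS2, Bowtie2 2.3.0.1 and deepTools. No source used here gives their settings or says how lists were matched to inputs. The deposited GATA1 list gives only start and end. The wild-type MOF lists that the authors deposited give 1 bp summits with a −log10 value whose kind no header states. For heterozygous cells the deposited files hold intervals, and the authors give for each a score, a fold over background and both p and q on the −log10 scale.

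Coordinates are 1-based. Genes were the 21523 coding genes of RefSeq GRCm38.p6 on chromosomes 1 to 19 and X from position 3000000 onward. Promoter sequences were not used here for chromosome 18, and the promoter table lacked starts for some genes on other chromosomes. Wild-type summits were extended by 150 bp on each side, and an overlap of 1 bp counted. Shares of evenly spread positions were computed exactly from lengths, keeping chromosome and width. Computation used Python 3.11.15 with SciPy 1.17.1, tested on simulated data. Fisher's exact tests were two-sided. The members, the 32 gene lists and the tests were chosen with earlier results of these data known. Named genes were those with 2 or more intervals, in MOF lists, widest, narrowest, longest, shortest, nearest to a gene end or on a list (up to 4 for most lists). Peak values were used only to rank peaks within a list.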

Additional observations from a re-analysis of the deposited data

How the results depend on the processing

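Of 51 values recomputed under other settings, 40 kept their direction and side of the threshold or stayed within their interval. Among these are 4 values that could not change, since both settings of summit extension leave the heterozygous lists as they are. The share in or near coding genes became 53.7% with a window of 5 kb. The share at gene ends became 3.02% with a window of 0.5 kb and 20.9% with 5 kb, since a window sets how much sequence counts. No share of evenly spread positions is given for these other windows, so whether the ratios to positions hold there was not tested. The median gene length became 56 kb with a window of 5 kb and 57.7 kb for intervals at or above the median width. For wild-type HSC the difference in overlap between intervals in or near coding genes and the others, -0.00372 percentage points, became 0.748 with an overlap of at least 50% of the interval and 0.41 with MOF peaks at or above the median score, neither past the threshold. For wild-type MEP the difference of -6.35 points passed at -11.9 (intervals at or above the median width), -8.01 (without Kat8) and -6.94 (intervals within 10 kb merged). It did not pass at -1.88 (an overlap of at least 50% of the interval, exact test, adjusted p = 0.668), -5.12 (summits as deposited), -5.87 (summits extended by 500 bp) and -5.57 (MOF peaks at or above the median score). For heterozygous MEP, 3.49 points became 4.65 with an overlap of at least 50% of the interval (exact test, adjusted p = 0.0281), but 1.35 without Kat8 (0.648) and 1.67 with intervals within 10 kb merged (0.672). The cause was not tested. The heterozygous HSC difference passed under the 5 alternatives that could change it, with adjusted p from 0.00205 to 0.0222. The other spans for evenly spread positions, chosen after seeing the data, gave 42.5% and 41.4%. No paired analysis was possible because each list comes from 1 library, and the labels number no replicates of the libraries with a list. Depth is unknown and limits every list.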
